A study of Homo sapiens with 5 samples.

Results

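Genes were followed whose RNA lay on the same side of its native counterpart after transfection of both methylated microRNAs, let-7a labelled 19A and miR-17 labelled 13A. The members were chosen by rule. For each gene the difference of log2(TPM + 1), methylated minus native, was taken within the let-7a pair and within the miR-17 pair, in genes that averaged 1 TPM or more (transcript abundance scaled by length and by the library's total) over the 5 libraries, and the 2 differences were averaged. Of 57773 genes listed, 14180 entered, and 6508 of them had the same sign in both pairs. The cells were HCT116, a human colorectal carcinoma line, in a form in which Dicer, the enzyme that cuts microRNA precursors, had been knocked out according to the study's design. One library of total RNA depleted of ribosomal RNA was made for each of 5 transfections: a negative control, native let-7a, let-7a 19A, native miR-17 and miR-17 13A. Where 5 TPM values follow a gene in library order, they are given in the order of that list, and paired differences give the let-7a pair first. All 5 groups therefore shared the Dicer knockout and the transfection, the pairs shared no library with each other, and the labels gave neither dose, time after transfection, clone nor the chemical form of the methyl mark.

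A mature microRNA is held by an Argonaute protein and finds messenger RNAs mainly through its seed, bases 2 to 8 from the 5′ end. Argonaute recruits TNRC6 proteins, which bring in deadenylases and decapping factors, so that a targeted messenger RNA is translated less and decays. In cells without Dicer few microRNAs of the cell's own are made, since most of them need this enzyme. let-7a is known for silencing growth and embryonic genes such as HMGA2, and miR-17 for promoting the G1/S transition and restraining TGF-beta and cytoskeletal genes. RefSeq's mature sequences of the 5p arms are shown because they hold an A, the labelled base, at the labelled positions; the labels do not name the arm. The first line of each microRNA has the seed in capitals, the second the base at the labelled position, 19 or 13.
hsa-let-7a-5p, seed: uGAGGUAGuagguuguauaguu
hsa-let-7a-5p, position 19: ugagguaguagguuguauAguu
hsa-miR-17-5p, seed: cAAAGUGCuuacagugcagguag
hsa-miR-17-5p, position 13: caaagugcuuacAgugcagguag
Both labelled positions held an A in the 5p arms, and neither lay in bases 2 to 8. The seeds differ: the 7-letter site complementary to the let-7a seed reads CTACCTC and that of miR-17 reads GCACTTT. The 3p arms of these precursors held U or G at the labelled positions.

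Across all genes tested, 1265 were higher in both methylated libraries (8.92%) and 5243 were lower in both (37.0%), while 6886 had opposite signs (48.6%) and 786 had a difference of exactly 0 in a pair. Both pairs were off centre towards lower values: the median difference was -0.03 in the let-7a pair and -0.09 in the miR-17 pair. With each pair centred on its own median, 2943 genes were higher in both, 2944 lower in both and 8285 opposite. The 2 differences did not run together across genes. Pearson's r between them over the 14180 genes was -0.08, and it was -0.26 over the 6223 genes averaging 20 TPM or more; genes are not independent replicates, and each point shares the same 4 libraries.

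Large shared differences were few. At 1.5-fold or more in both pairs, 44 genes were higher (0.31%) and 69 lower (0.487%), and 120 genes passed the same size with opposite signs, 65 of them higher with methylated let-7a (0.458%) and 55 higher with methylated miR-17 (0.388%). At 2-fold the shared counts were 17 (0.12%) and 26 (0.183%) against 50 opposite (0.226% and 0.127% by direction). Most shared genes lay at low levels. Of the 44 and 69 at 1.5-fold, 34 and 57 had a mean between 1 and 5 TPM, as did 3400 of all 14180 genes. A further 10 and 12 were between 5 and 20 TPM, and 0 and 0 at 20 TPM or above. With 1 library a group, the error of a single library is unknown, and the only measure of spread is how far the 2 pairs disagree. limma's moderated test over the 4 libraries, with the microRNA as a block and 1 residual degree of freedom, called 0 of 14180 genes at a Benjamini-Hochberg adjusted p of 0.05 (lowest 0.253). It left 445 genes at an unadjusted p under 0.05 (3.14%), 144 higher and 301 lower. Limited to genes averaging 5 TPM or more, limma called 9 genes, which are named further on, and with centred differences 20, of which 14 were listed at 0 in some library; 6 genes were called under both.

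**Figure D1:**
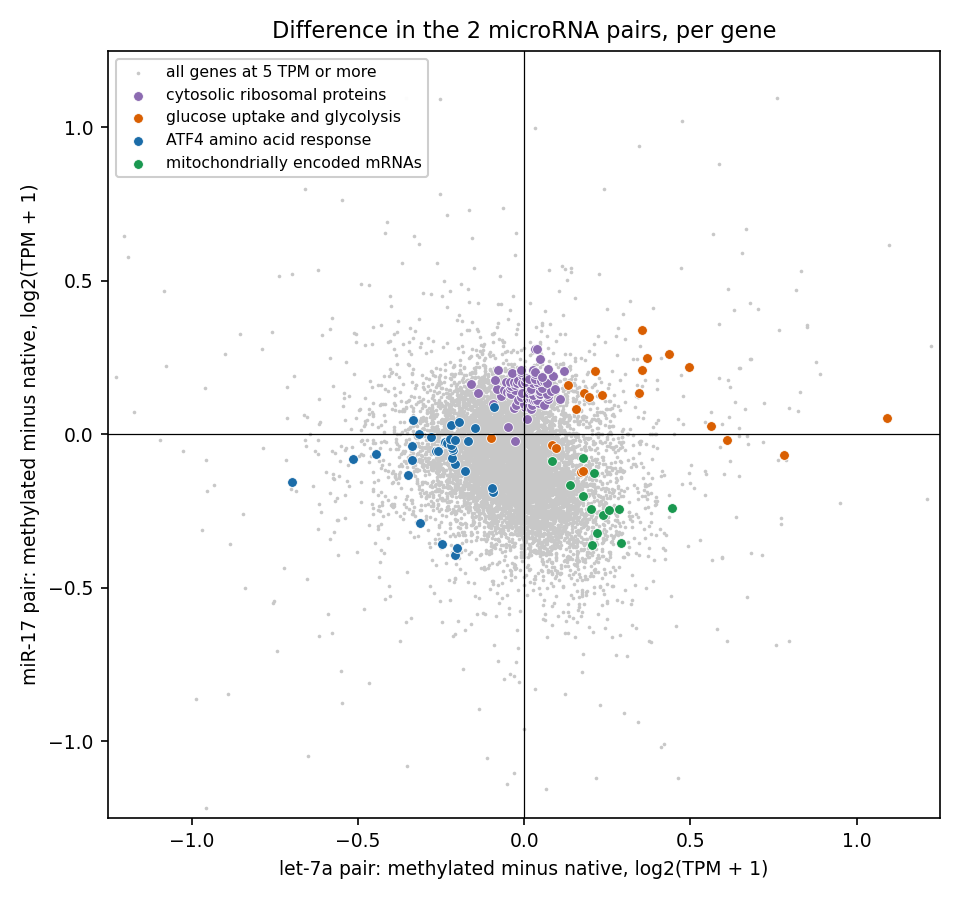
Each point is a gene averaging 5 TPM or more; the x axis is the difference for let-7a and the y axis that in the miR-17 pair, both methylated minus native on the log2(TPM + 1) scale, and 54 of 10780 genes lie outside the axes. Glycolysis genes (orange) sit mostly to the upper right, ATF4 response genes (blue) to the left and mostly under the horizontal line, ribosomal protein genes (purple) above it except RPS27L, and all 13 mitochondrially encoded mRNAs (green) at the lower right.

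The clearest group on the higher side was glycolysis, the pathway from glucose to lactate. Of 22 genes of glucose uptake and glycolysis, 14 were higher in both methylated libraries, 1 was lower in both and 6 had opposite signs. Their median difference was 0.29 in the let-7a pair and 0.10 in the miR-17 pair, against -0.03 and -0.09 over all genes. In the negative control, 21 of the 22 lay above all 4 microRNA libraries, as 3759 of 14180 genes did over the whole set. No member passed limma's adjusted threshold. At an unadjusted p under 0.05 limma had 6 of them, all higher.

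ALDOC, a fructose-bisphosphate aldolase, had 413.3 TPM in the control, 222.3 with native and 284.7 with methylated let-7a, and 152.9 with native and 193.6 with methylated miR-17. Its differences were 0.36 and 0.34, nearly the same size in both pairs, and limma gave a mean of 0.35 ± 0.08 (SE) with an adjusted p of 0.763. LDHA, the lactate dehydrogenase subunit that makes lactate from pyruvate, followed the same order with 934.9, 530.0, 748.6, 391.6 and 456.5 TPM in library order. ENO2, an enolase, had 78.1, 44.9, 61.1, 32.2 and 38.8 TPM in the same order. In all of these the methylated library lay between its native partner and the control. GPI, which opens the pathway after hexokinase, had 372.8, 229.2, 293.5, 200.4 and 231.9 TPM, and ALDOA had 1598.2, 975.9, 1260.1, 769.6 and 915.2 TPM. The most abundant member, GAPDH, had 10951.7, 7820.1, 9063.4, 6953.4 and 8028.8 TPM, a difference of 0.21 in either pair. The other enzymes higher in both pairs included PGK1, PGAM1, TPI1, ENO1 and PKM. PGK1 was at 0.34 and 0.13, PGAM1 at 0.23 and 0.13, TPI1 at 0.18 and 0.14, ENO1 at 0.13 and 0.16, and PKM at 0.15 and 0.08.

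Some genes of glucose entry and its control did not match between the pairs by sign. SLC2A1, the main glucose transporter of these cells, had 608.6 TPM in the control, 235.7 and 406.1 with native and methylated let-7a, and 300.5 and 286.8 with native and methylated miR-17, so that it was 0.78 higher in the let-7a pair and 0.07 lower in the other. HK2, the inducible hexokinase, was at 0.61 and -0.02. SLC2A3, a high-affinity glucose transporter, was higher in both at 1.09 and 0.05, with 21.6, 5.8, 13.5, 9.7 and 10.1 TPM. PFKFB4, a regulator of phosphofructokinase, was at 0.56 and 0.03, while PFKFB3 was at 0.18 and -0.12. PFKM, the muscle form of phosphofructokinase, was the member lower in both, at -0.10 and -0.01, and centred on all genes it was no longer lower in both. The enzymes HK1, at 0.08 and -0.04, and PFKL, at 0.10 and -0.04, also had opposite signs. With each pair centred on all genes, 19 of 22 members were higher in both and 3 had opposite signs. Which members were higher in both pairs thus depended on the scale.

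Hypoxia-inducible factor (HIF) switches on many of these enzymes together with other effectors of low oxygen. Of 23 other HIF effectors, 9 were higher in both pairs, 1 was lower in both and 12 had opposite signs. Their median was 0.39 in the let-7a pair and 0.00 in the miR-17 pair, and 20 and 11 members were above 0, where 39.8% and 28.4% of all genes were. ANKRD37, a HIF target of little known function, had 10.4, 7.2, 13.8, 5.8 and 7.7 TPM in library order, differences of 0.85 and 0.36. BNIP3, a mitophagy receptor, had 101.8, 45.7, 70.5, 40.6 and 46.0 TPM, NDRG1 had 222.6, 118.8, 165.0, 77.9 and 89.3 TPM, and FAM162A, a mitochondrial protein, had 56.3, 36.2, 48.5, 32.6 and 38.9 TPM. Each of these was higher in both methylated libraries, the smallest difference being 0.176 for BNIP3 in the miR-17 pair. P4HA1, a collagen prolyl hydroxylase, was at 0.65 and 0.02. ANGPTL4, a secreted lipase inhibitor, was at 1.30 and -0.07, and ADM, the vasodilator adrenomedullin, at 0.67 and -0.03. STC2, which is also an ATF4 target, was the member lower in both, at -0.10 and -0.17.

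Of 8 regulators of HIF, 5 were lower in both pairs and 1 was higher, against 37.0% and 8.92% of all genes. With each pair centred on all genes 3 were lower, 2 higher and 3 opposite, so the lower count depended on the shift of all genes. EGLN2, an oxygen-sensing prolyl hydroxylase, was at -0.20 and -0.39, and VHL, the ubiquitin ligase subunit that marks HIF for destruction, had 55.4, 73.7, 67.7, 56.9 and 46.0 TPM, or -0.12 and -0.30. HIF1A itself had 161.7, 177.1, 159.9, 109.6 and 105.5 TPM, or -0.15 and -0.05. EGLN3, a hydroxylase that HIF itself induces, was higher at 0.48 and 0.03.

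By the longest annotated transcript of each gene, the glycolysis genes had a median length of 3582.5 bases and the hypoxia effectors 3185, near the 3340 of all genes. When each difference was set against the median of genes in the same one of 10 bins by transcript length, a choice made after seeing the data, 20 of 22 glycolysis genes and 14 of 23 hypoxia effectors were higher in both pairs. Within the same bins 3052 of 13842 genes were higher in both. With centring on all genes the counts were 19 and 15, against 2943 of 14180 genes.

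**Figure D2:**
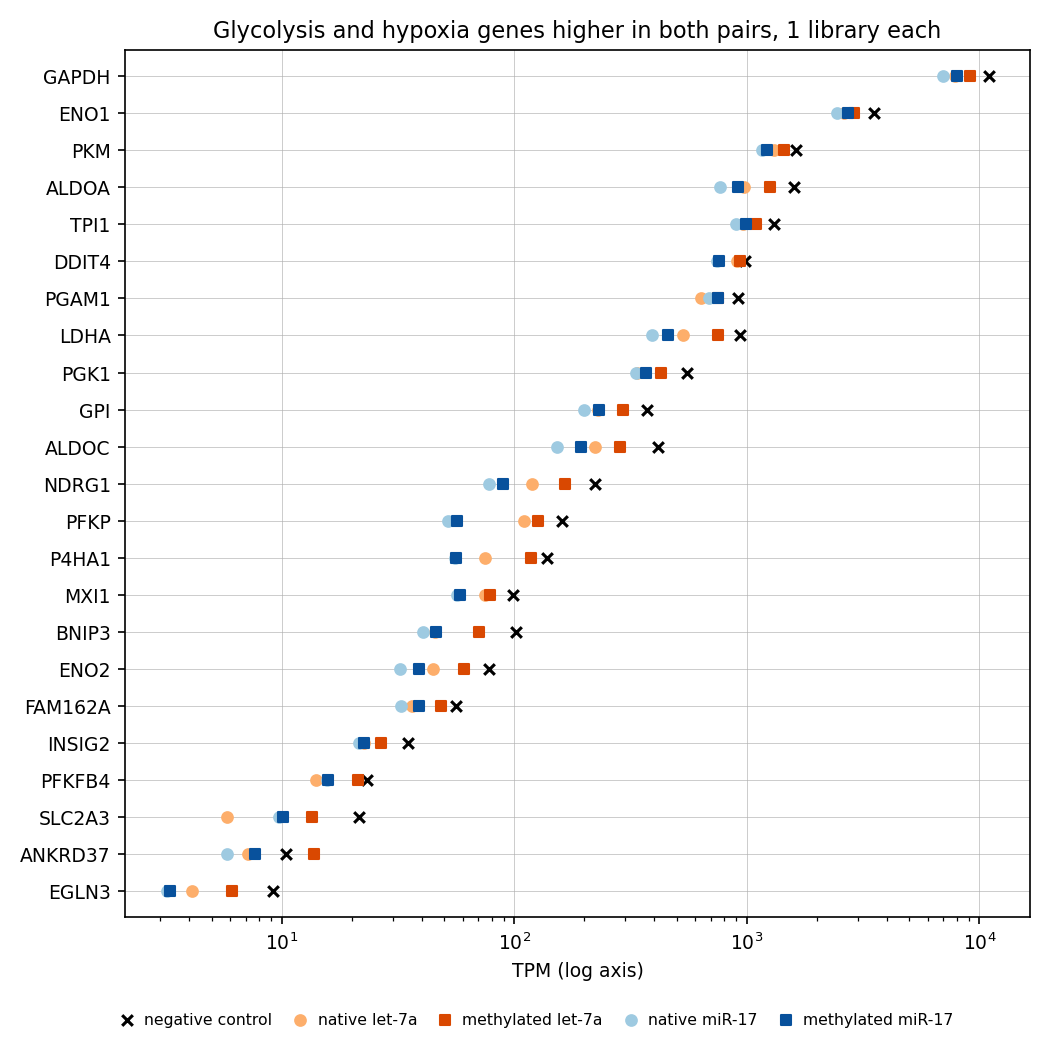
Each row is one of the 23 glycolysis and hypoxia genes that were higher in both pairs, ordered by mean level, and the x axis is TPM on a log scale with 1 library a group. Squares (methylated) lie to the right of the circles (native) of the same colour, and the negative control (cross) is the highest library in all rows but ANKRD37, where methylated let-7a is at 13.8 and the control at 10.4 TPM.

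HIF binds a short element in the promoters of its targets, so the letters around the starts of these genes were read. The core of the hypoxia element, ACGTG, was searched on both strands in RefSeq's 300 bases around a gene's first listed start (250 before, 50 after; GRCh38.p14), each promoter counted once even where the letters read the same on both strands. Of the 40 glycolysis and hypoxia promoters matched, 19 held it (47.5%), against 26.7% of 10495 promoters of genes tested and 21.6% of 27305 promoters in all. Among members higher in both pairs it was in 13 of 21 (61.9%). The lists were made with known HIF targets, so a high share was built into them. This subset was picked by the differences themselves. The shares therefore describe the lists, and the cause of the differences was not tested. Windows of 30 bases are shown for the members described first, each read 5′ to 3′ along the gene with the match in capitals; CACGT is the match on the other strand.
ALDOC, chr17:28576906-28576935, minus strand: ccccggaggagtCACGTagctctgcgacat
LDHA, chr11:18394465-18394494, plus strand: agcccgactcacACGTGggttcccgcacgt
ENO2, chr12:6914450-6914479, plus strand: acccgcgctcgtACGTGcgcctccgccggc
ANKRD37, chr4:185396668-185396697, plus strand: gcgccgggctccACGTGccagtgtttgtgt
BNIP3, chr10:131982039-131982068, minus strand: cgcacgcgccgcACGTGccacacgcacccc
These matches ended 23, 81, 113, 156 and 128 bases before the start, in that order. They describe letters in a window and do not show that a factor was bound.

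On the lower side the group with the highest share was the response to amino acid shortage that the transcription factor ATF4 drives, which raises amino acid transporters, amino acid synthesis and the enzymes that charge transfer RNAs. Of 32 genes, 26 were lower in both methylated libraries, 0 were higher in both and 5 had opposite signs. The median difference was -0.22 in the let-7a pair and -0.05 in the miR-17 pair. The miR-17 median thus lay above the -0.09 of all genes, and with each pair centred on all genes the count lower in both was 10 of 32 and the miR-17 median 0.04, so the shared direction depended on the scale in that pair. In the let-7a pair all 32 were below 0, as were 57.1% of all genes, and the centred median was -0.19. The control lay below all 4 microRNA libraries in 28 of 32, as it did in 2999 of 14180 genes. limma called 0 of these genes after adjustment; 7, all lower, were at an unadjusted p under 0.05.

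CHAC1, which breaks down glutathione, had 59.6 TPM in the control, 104.2 with native and 63.9 with methylated let-7a, and 133.0 with native and 119.2 with methylated miR-17. Its differences were -0.70 and -0.16, and limma gave a mean of -0.43 ± 0.13 (SE) with an adjusted p of 0.983. Methylated let-7a was near the control, while both miR-17 libraries were at about the same high level. PSAT1, of serine synthesis, repeated this with 400.9, 647.5, 453.0, 631.2 and 597.4 TPM in library order. ASNS, asparagine synthetase, had 194.9, 320.1, 234.9, 386.8 and 369.9 TPM.

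Among amino acid transporters of the list, compared after their values were seen, 4 had the larger difference in the miR-17 pair and 1, SLC3A2, in the let-7a pair. SLC7A11, the cystine importer, had 27.5, 57.5, 48.3, 60.6 and 47.1 TPM, or -0.25 and -0.36. SLC7A5, which imports leucine, had 483.6, 637.6, 554.5, 671.7 and 519.7 TPM, or -0.20 and -0.37, and SLC7A1, the arginine and lysine importer, had 42.4, 64.0, 55.3, 54.5 and 41.3 TPM. CEBPB, a transcription factor of the stress response, was at -0.31 and -0.29, with 102.9, 133.9, 107.6, 105.4 and 86.0 TPM. SLC1A5, the glutamine importer, was at -0.09 and -0.19, and SLC3A2, the heavy chain that pairs with SLC7 transporters, at -0.22 and -0.08. SLC7A11, SLC7A5, SLC7A1 and CEBPB were lower in both methylated libraries by 0.20 or more and stayed below 0 in both pairs after centring. The transfer RNA synthetases did not: AARS was at -0.21 and -0.02, IARS at -0.22 and -0.02, and SARS at -0.22 and 0.03. ATF4 itself had 1226.3, 1502.7, 1311.1, 1340.6 and 1378.0 TPM, or -0.20 and 0.04. ATF3, another stress factor, was at -0.09 and 0.09.

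**Figure D3:**
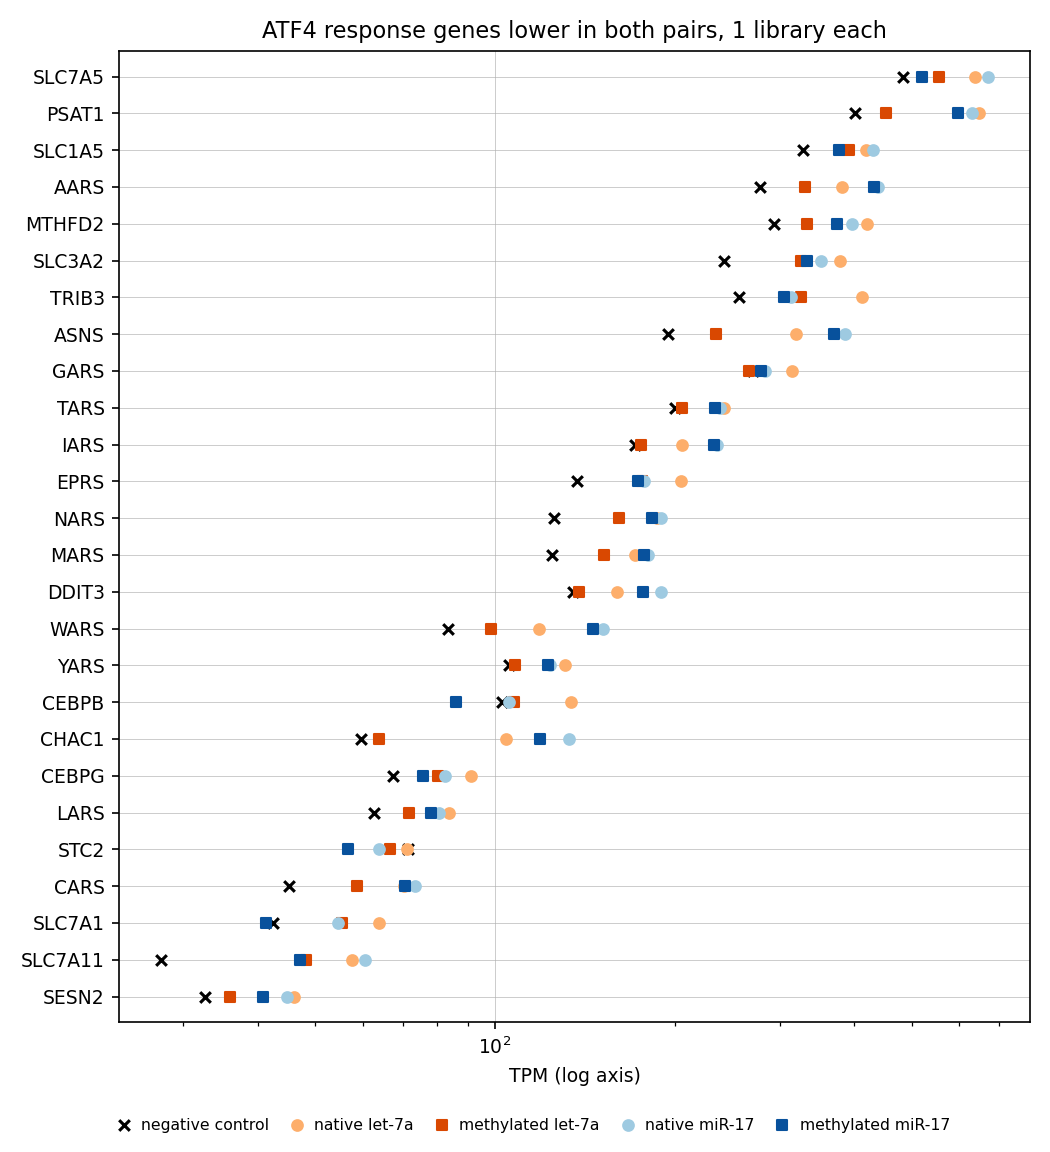
Each row is one of the 26 ATF4 response genes that were lower in both pairs, and the x axis is TPM on a log scale with 1 library a group. Squares (methylated) lie to the left of circles (native) of the same colour; for CHAC1, PSAT1 and ASNS the step is wide for let-7a (orange) and narrow for miR-17 (blue).

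The composite site bound by ATF4 with C/EBP partners was searched as TGATGNAA on both strands in the same promoter windows. It was in 11 of 27 ATF4 response promoters (40.7%), against 1.58% of the promoters of genes tested and 3.67% of all promoters. The list was made of genes known to answer to ATF4, so a high share was built into it. The share describes the list, and the cause of the differences between methylated and native libraries was not tested. The windows of CHAC1 and ASNS, both described above, are shown with the match in capitals; in CHAC1 it is on the other strand.
CHAC1, chr15:40953251-40953280, plus strand: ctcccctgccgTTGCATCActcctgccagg
ASNS, chr7:97872458-97872487, minus strand: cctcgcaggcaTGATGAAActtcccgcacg
The matches ended 201 and 60 bases before the start.

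Cytosolic ribosomal protein genes were higher in both pairs in 48 of 80, with 1 lower in both and 31 opposite. Over all genes 8.92% were higher and 37.0% lower. The median difference of the ribosomal protein genes was 0.01 in the let-7a pair and 0.15 in the miR-17 pair, where 79 of 80 were above 0. RPS14 had 803.1, 862.6, 937.7, 970.7 and 1120.3 TPM in library order, and RPL14 had 1532.6, 1624.6, 1668.6, 1510.9 and 1833.6 TPM. The control was below all 4 in 76 of 80, as it was in 21.1% of all genes. RPS27L, a p53-induced paralog of RPS27, was the member lower in both, at -0.03 and -0.02, and was higher on average once centred on all genes. Their transcripts were short, with a median of 1857 bases; centred within the 10 length bins, 69 of 79 with a length were higher in both. Pseudogene copies of these genes could share reads with them. Many host genes of small nucleolar RNAs start with the same terminal oligopyrimidine motif as ribosomal protein genes. Of 18 host genes of small nucleolar RNAs, 5 were higher in both pairs (27.8%) and 1 lower (5.56%). The other 12 had opposite signs (66.7%, against 48.6% of all genes). Their median was -0.04 in the let-7a pair, where 13 were below 0, and 0.14 in the miR-17 pair, where 17 were above 0. Among the host genes higher in both, SNHG16 was at 0.19 and 0.15 and ZFAS1 at 0.11 and 0.15.

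The next groups, apart from the heat shock genes, were nearer to the background of 37.0% lower and 8.92% higher. Of 28 p53 targets, 15 were lower in both pairs and 0 higher, with ZMAT3, a splicing regulator, at -0.19 and -0.20 and GADD45A, a DNA damage response gene, at -0.32 and -0.06. Of 37 genes of deadenylation and messenger RNA decay, 19 were lower and 0 higher; EXOSC6, an exosome subunit, had 32.2, 36.7, 30.6, 31.8 and 26.6 TPM and EDC3, a decapping enhancer, had 27.9, 30.4, 26.7, 35.8 and 31.5 TPM. Their median after centring was 0.01, so as a group they followed the shift of all genes. Of 33 splicing factors, 14 were lower and 4 higher, but 2 lower and 10 higher after centring; of the p53 targets 10 were lower and 0 higher after centring. Of 19 heat shock genes, 7 were higher (36.8%) and 4 lower. After centring 9 of them were higher and 0 lower, where 20.8% of all genes were higher. HSPA1A, the inducible HSP70, had 29.5, 12.6, 19.1, 12.6 and 13.3 TPM, or 0.56 and 0.07. HSPA1A and its near-identical copy can split reads, so its value is uncertain.

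The machinery that handles microRNAs and methyl marks gave no large shared difference. DICER1, the gene knocked out, had 15.4, 11.2, 12.5, 15.9 and 12.9 TPM in library order, which does not check the knockout, because a gene total can include RNA with a small deletion. AGO2, the Argonaute that cuts RNA, had 58.3, 54.1, 55.2, 34.5 and 27.1 TPM, or 0.03 and -0.34. All 7 AGO and TNRC6 genes were below 0 in the miR-17 pair, as were 69% of all genes, and 2 of them, TNRC6A and TNRC6C, were below 0 in both. DGCR8, which works with DROSHA on primary microRNAs, was lower in both at -0.17 and -0.24. N6-methyladenosine, a methyl mark on A, is written by a complex around METTL3 and METTL14. METTL3 had 12.8, 15, 15, 17.5 and 16.8 TPM, or 0.00 and -0.06. METTL14 was lower in both, at -0.15 and -0.20, as were RBM15 at -0.09 and -0.17 and KIAA1429 at -0.15 and -0.05, 3 of 9 writers. The eraser FTO was higher at 0.04 and 0.09, and the eraser ALKBH5 was at 0.15 and -0.22. Of 9 readers 5 were lower in both, among them IGF2BP3, itself a let-7 target, at -0.43 and -0.05. Centred on all genes, 2 writers were lower and 3 higher, and 0 readers were lower and 1 higher, so these counts moved with the shift of all genes.

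Targets of the microRNAs were read in both pairs. Of 49 let-7 targets, 33 had opposite signs, 10 were lower in both and 3 higher, with medians of 0.13 in the let-7a pair and -0.11 in the miR-17 pair. HMGA2, a chromatin protein and let-7's best known target, had 56.0, 23.9, 28.1, 36.5 and 31.0 TPM, or 0.22 and -0.23. Of 57 miR-17 targets, 29 had opposite signs, 22 were lower in both and 4 higher, with medians of -0.01 and -0.12. Over all genes 48.6% had opposite signs, 37.0% were lower in both and 8.92% higher. The miR-17 targets were near these shares, at 50.9%, 38.6% and 7.02%. The let-7 targets were at 67.3%, 20.4% and 6.12%. Centred on all genes, 14 let-7 targets were higher in both and 5 lower, and 11 miR-17 targets were higher and 10 lower. On that scale 20.8% of all genes were higher and 20.8% lower, so the counts of targets lower in both moved with the shift of all genes. LIMK1, an actin-regulating kinase known as a miR-17 target, had 60.7, 61.9, 60.3, 22.3 and 19.5 TPM, or -0.04 and -0.18. E2F2 and E2F3, G1/S transcription factors, were lower in both, at -0.27 and -0.12 and at -0.04 and -0.33.

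Seed matches were counted in GENCODE 29's longest annotated 3′ UTR of each of 12023 coding genes: CTACCTC or TACCTCA for let-7a, and GCACTTT or CACTTTA for miR-17. A let-7a match was in 2159 genes and a miR-17 match in 3787. Genes with a let-7a match had a median of 0.00 in the let-7a pair, against -0.04 without, and -0.14 against -0.08 in the miR-17 pair. Genes with a miR-17 match had -0.12 against -0.07 in the miR-17 pair and -0.02 against -0.04 in the let-7a pair. Averaged over both pairs the medians were -0.07 with and -0.06 without a let-7a match, and -0.07 with and -0.06 without a miR-17 match. Genes with a match had longer transcripts, a median of 5197 bases against 3375 for let-7a and 5039 against 3106 for miR-17; the part of length in these differences was not tested.

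Transcript length, that of each gene's longest annotated transcript, went with the differences in opposite directions in the 2 pairs. Over 10134 coding genes with at least 5 TPM, Spearman's rho between length and the difference was 0.26 in the let-7a pair and -0.49 in the miR-17 pair. Of 4 bins of equal size, the shortest transcripts had 14.4% of genes higher in both pairs and the longest 2.37%. The longest bin had a median of 0.02 in the let-7a pair and -0.17 in the miR-17 pair, and the shortest -0.08 and 0.02. GC content showed no such relation, with rho of 0.01 and 0.02.

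**Figure D4:**
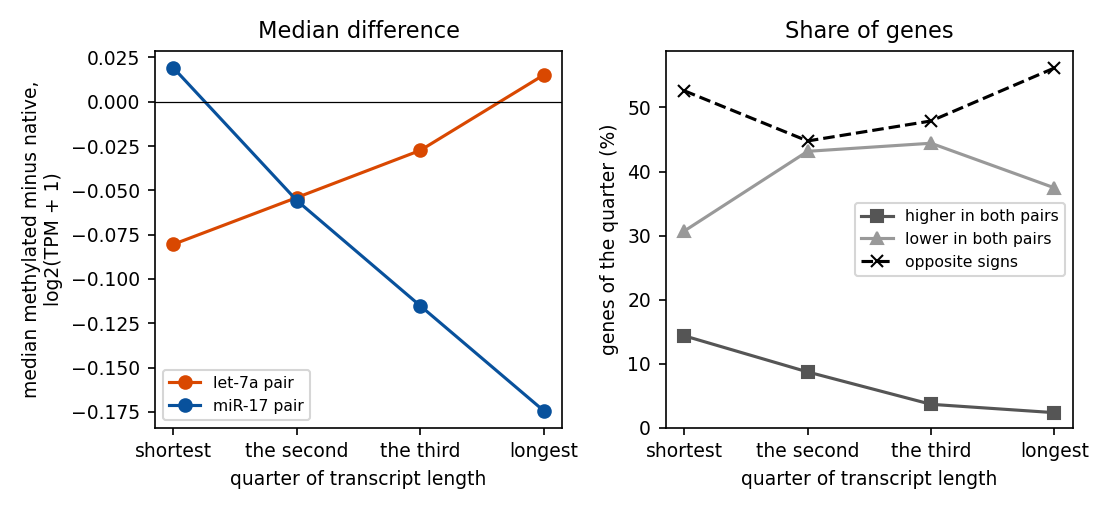
Coding genes with at least 5 TPM in 4 bins of annotated transcript length (x axis): the left panel gives the median difference in each pair on the log2(TPM + 1) scale, the right panel the percentage of genes in each class of signs. The let-7a line goes up and the miR-17 line down with length, and the share higher in both goes from 14.4% to 2.37%.

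Whole groups also split between the pairs, where 48.6% of all genes had opposite signs. All 13 mitochondrially encoded mRNAs were higher with methylated let-7a and lower with methylated miR-17, with medians of 0.21 and -0.24; MT-CO1, a subunit of cytochrome oxidase, had 18547.7, 12058.7, 14696.0, 13947.0 and 11781.3 TPM in library order. These mRNAs are short, with a median of 784 bases, so they ran against the order by length. Mitochondrially encoded RNA made up 12.6% of TPM in the control, 10.002% and 11.7% for native and methylated let-7a, and 10.9% and 9.36% for native and methylated miR-17. Nuclear genes of oxidative phosphorylation had opposite signs in 38 of 53, the other way round, with medians of -0.09 and 0.09. Chromatin regulators with long transcripts (median 9646 bases) had opposite signs in 31 of 38, with medians of 0.07 and -0.29. Of 44 G2/M genes all were below 0 in the let-7a pair, where 57.1% of all genes were. In the miR-17 pair 28 were above 0, where 28.4% of all genes were. KIF11 and CENPF, of the mitotic spindle and the kinetochore, were lower in both, at -0.34 and -0.21 each.

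**Figure D5:**
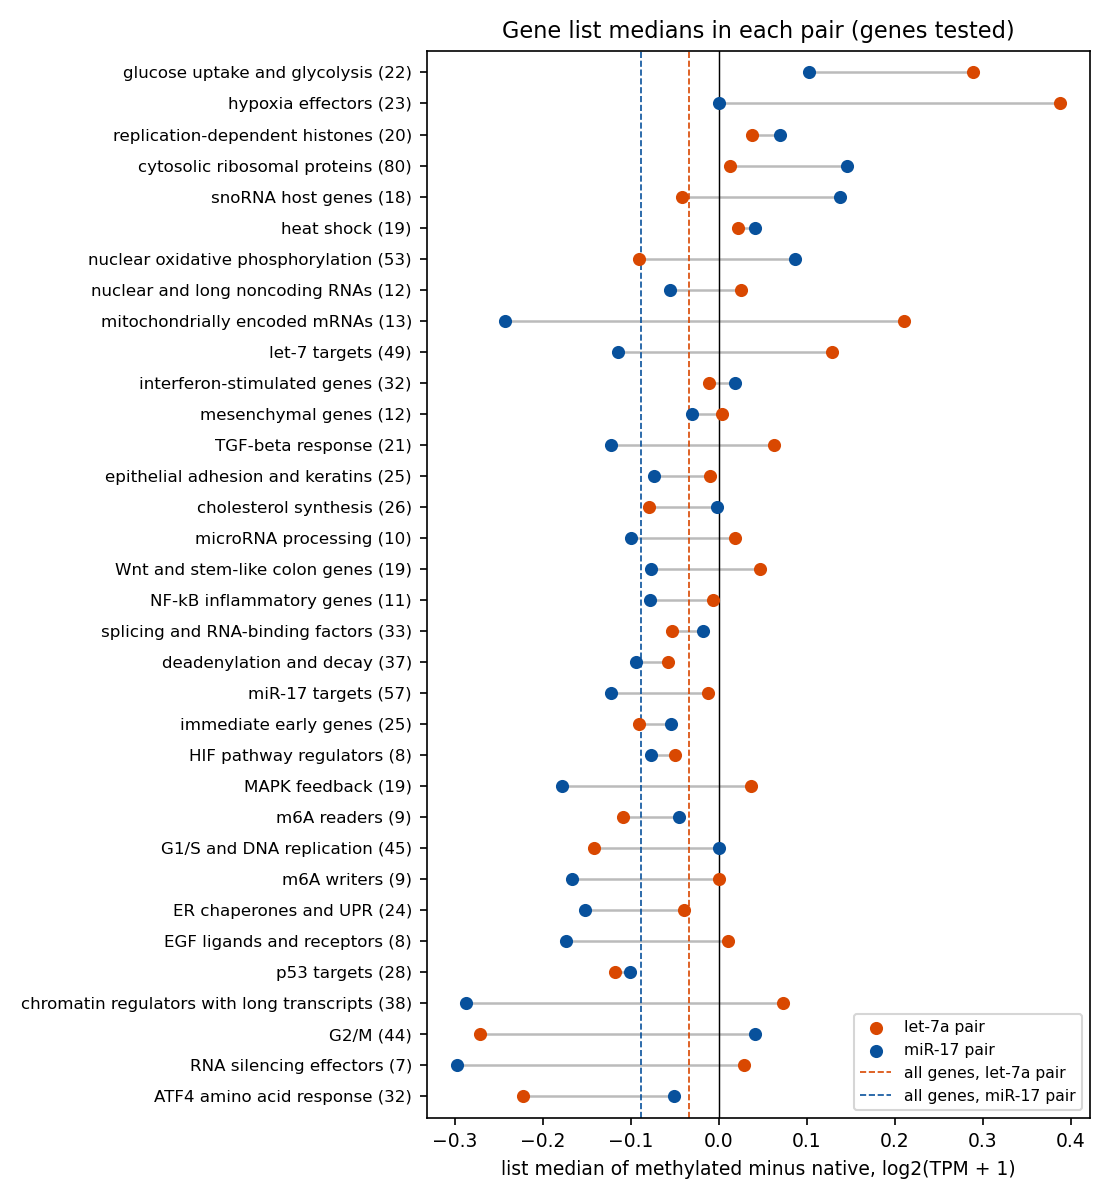
For each gene list with at least 5 genes tested (number in brackets), the median difference in the let-7a pair (orange) and the miR-17 pair (blue) on the log2(TPM + 1) scale, with the medians of all genes as dashed lines at -0.03 and -0.09. Glycolysis is above 0 in both pairs, ATF4 response genes are below 0 in both, and mitochondrially encoded mRNAs have the widest split among lists of 10 or more genes.

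The genes with the largest shared difference were mostly not standard coding genes. Of the 44 that were 1.5-fold higher in both pairs, 14 were protein-coding (31.8%), against 86.4% of all genes tested, and 26 were listed at 0 in at least 1 library (59.1%, against 1.78%). Of the 69 that were lower, 17 were protein-coding (24.6%) and 37 were listed at 0 somewhere (53.6%). Their median levels were 2.23 and 2.02 TPM, against 15.99. The 65 and 55 genes that passed 1.5-fold with opposite signs looked alike, with 26.2% and 21.8% coding and medians of 2.28 and 2.32 TPM. By annotated length the higher genes could not be compared, since 77.3% of them had a length. The lower genes, 91.3% of which had one, had a median of 776 bases against 3340 for all genes. Short length was not particular to them. Among the opposite-sign genes with a length (87.7% and 81.8%), the medians were 592 and 568 bases.

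Among coding genes of at least 5 TPM above 0 in every library, 6 were higher by 1.5-fold in both pairs. RAB4B-EGLN2, a readthrough of neighbouring genes, had 7.1, 0.3, 2.7, 5.1 and 13.8 TPM in library order, while EGLN2 itself was lower in both pairs. SULT1A4, a sulfotransferase with a near-identical copy, had 6.6, 1.2, 2.7, 4.7 and 13.8 TPM. The others were ZHX1-C8ORF76, also a readthrough, and RP11-234B24.6, RP11-244H3.4 and RP11-203J24.9, which have only clone names. Readthrough and duplicated genes share reads with their neighbours or copies, so these values are uncertain. On the lower side only AL021546.6, with 3.7, 5.5, 0.8, 11.7 and 4.1 TPM, and RP11-463D19.2, with 7.9, 22.2, 13.8, 14.1 and 6.3 TPM, met the same rule.

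At 20 TPM or more no gene reached 1.5-fold in both pairs, and most of those nearest to it were uncertain in their counting. TMEM189-UBE2V1, a readthrough, was at 0.48 and 1.02, and GSTT2B, a glutathione transferase with a near-identical copy, at 0.63 and 0.41. The antisense gene RP5-940J5.9 had 2799.5, 1761.9, 2867.2, 2243.7 and 2980.0 TPM. SMN2, a copy of the motor neuron survival gene SMN1, had 32.9, 36.1, 21.5, 39.3 and 28.8 TPM, or -0.72 and -0.44. The antisense gene RP11-442H21.2 was at -0.50 and -0.39. The third nearest on the lower side was CEBPB, described above, which at -0.31 and -0.29 was well short of 1.5-fold.

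Noncoding genes on the lower side were led by antisense transcripts. RP11-360L9.8 had 3.4, 12.4, 5.9, 13.9 and 5.4 TPM in library order, or -0.96 and -1.22, and RP11-57H14.3, within an intron, had 12.9, 11.6, 5.8, 11.6 and 6.0 TPM, or -0.89 and -0.85. Both methylated libraries were below both native ones in each. Among the 9 genes that limma called when genes averaging 5 TPM or more were tested, RP11-1415C14.3 and RP11-315D16.2 had the lowest adjusted p (0.00106, limma), and both were listed at 0 in a library. AL021546.6 had 0.0165, RP11-360L9.8 0.0211, RP11-234B24.6 0.0230 and RAB4B-EGLN2 0.0357. The antisense gene RP11-805J14.5 had 0.0414, a second entry under the symbol PIK3R2, also at 0 in a library, 0.0432, and RP11-463D19.2 0.0473. The smallest p values over all genes belonged to genes listed at 0 in some library, such as ARAP1-AS1 with 0.0, 6.1, 0.0, 4.7 and 0.0 TPM and RP11-1415C14.3 with 15.3, 0.0, 5.1, 4.5 and 20.2 TPM; for these no fold is given.

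The cells carried the markers of a colon epithelial line: 7 of 10 such markers averaged 1 TPM or more, 2 of the 10 were listed at 0 in all libraries, and together they summed to between 7523 and 9129 TPM. Fibroblast markers summed to between 11.8 and 17.2 TPM, blood and immune markers to between 4.3 and 5.5, endothelial markers to between 0.3 and 1.2, hepatocyte markers to between 0.1 and 0.4, and neuron markers to between 76.8 and 96.4, nearly all of it SYT1 (between 76.3 and 95.4), with SNAP25 at most 0.9 and RBFOX3 at most 0.1. Ribosomal protein genes took 14.2% of TPM in the control and between 15.7% and 17.7% in the other libraries. In bulk RNA, fewer cells of a kind and less RNA per cell cannot be told apart.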

How the data were processed

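Total RNA was extracted with Isogen and sequenced from TruSeq Stranded libraries after Ribo-Zero depletion, per the labels' protocols. The authors deposited 1 table of TPM values for the 5 libraries, rounded to 1 decimal, and hg19 is the build in the submitters' processing notes. Alignment and counting tools, like the annotation release, were not given in the sources used here. Depth is unknown, so no counting interval is given. The members and gene lists were chosen with earlier results of these data known.

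Differences of log2(TPM + 1), methylated minus native, were taken within each microRNA for genes averaging 1 TPM or more. limma 3.58.1 (R 4.3.3) was fitted to all 14180 genes with the microRNA as a block and a mean-variance trend. It was tested on simulated data of the same 14180 genes, where it recovered 79.2% of changes of 1 and 95.8% of changes of 2 on the log2 scale, taking replicate error to equal the disagreement between pairs. Labels call each library a separate sample and name no separate cultures. With 1 library a group, limma's p-values rest on the disagreement between the 2 pairs and not on a spread between replicates. Gene types, lengths and 3′ UTRs came from GENCODE 29 by gene identifier (97.6% matched), without coordinates, and promoters and microRNAs from RefSeq. A gene's length was that of its longest annotated transcript, which need not be the one expressed. Python 3.11.15 with pandas 2.3.3 was used.

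Named genes were: up to 15 coding and 5 noncoding genes shared at 1.5-fold with a mean of at least 5 TPM and above 0 in all libraries; per list, up to 4 members with the largest same-direction mean difference and the member most against it; genes just inside or outside 1.5-fold at 20 TPM; the 5 smallest limma p values; the 3 largest opposite differences; and 8 fixed genes. Other members were named after their values were seen. Alternatives were other pseudocounts (0.1 and 5), filters, scalings, folds and limma settings, and leaving out a pair.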

Additional observations from a re-analysis of the deposited data

Results flagged for a closer look

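Groups of at least 8 genes were marked for a closer look where the medians of the 2 pairs were on opposite sides of 0 and 70% or more of the genes had opposite signs; 14 groups met the first condition and 5 both. The difference between pairs was not tested, since each pair has 1 library a group. The medians, let-7a pair first, were 0.211 and -0.243 for the 13 mitochondrially encoded mRNAs, -0.091 and 0.087 for 53 nuclear oxidative phosphorylation genes, 0.073 and -0.287 for 38 chromatin regulators with long transcripts, 0.036 and -0.178 for 19 MAPK feedback genes, and 0.01 and -0.174 for 8 EGF ligands and receptors. Opposite signs were also the most common class over all genes (48.6%).

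Single genes named by rule with opposite signs were MT-CO1 (0.285 and -0.243), SLC2A1 (0.782 and -0.067), HMGA2 (0.225 and -0.229), DICER1 (0.146 and -0.282) and AGO2 (0.029 and -0.337). CSAG2, a cancer-testis gene with a near-identical copy that can split its reads, was at -3.369 and 2.786. It had 25.9, 11.4, 0.2, 6.9 and 53.5 TPM in the library order of the report. Ranked by the smaller absolute difference, CSAG2 came first among opposite-sign genes of at least 5 TPM and above 0 in all libraries. CTD-2287O16.3 was at 1.069 and -1.333, and the pseudogene RPL15P3 at -0.914 and 1.87.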

How the results depend on the processing

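Counts of genes shared at 1.5-fold, 44 higher and 69 lower, moved with the settings that touch low genes: 91 and 133 with a pseudocount of 0.1, 6 and 15 with a pseudocount of 5, 10 and 12 at 5 TPM or more, 104 and 139 with no filter on the mean, 18 and 32 in genes above 0 in all 5 libraries, 129 and 206 at a difference of 25% or more, and 17 and 26 at 2-fold. With either pair left out, 223 to 317 genes were higher and 339 to 387 lower. Genes higher in both pairs by sign numbered 1265, but 828 at 5 TPM or more, 2012 with no filter, 2943 centred on the median of all genes and 3052 centred within 10 bins of transcript length; genes lower in both numbered 5243, but 2944 and 3028 under the 2 centrings. limma called 0 genes, but 9 (4 higher, 5 lower) at 5 TPM or more and 20 (12 higher, 8 lower) after centring. It called 0 with no replicate block, the 2 pairs being read without the microRNA term (lowest adjusted p 1, 157 genes at an unadjusted p under 0.05), and 0 with the other alternatives run. Of the gene lists, hypoxia effectors higher in both went from 9 to 15 centred and 14 within bins of length, and to between 11 and 20 with a pair left out; ATF4 response genes lower in both went from 26 to 10 and 13 under the 2 centrings and were between 26 and 32 with a pair left out. Glycolysis genes higher in both were between 14 and 21 with a pair left out, and ribosomal protein genes between 48 and 79. Among genes named by rule with the same sign in both pairs, the mean difference turned sign under the 2 centrings for FN1 (0.0261 and 0.0512), PFKM (0.00512 and 0.00775), RPS27L (0.0364 and 0.0541), PRKRA (0.0239 and 0.00868) and XPO5 (0.0141 and 0.0293). Centring within length bins was chosen after seeing the data. The cause of these moves was not tested, except that a stricter filter or fold leaves fewer genes. A TPM step of 0.1 and 1 library a group limit all values, those of low genes most.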

Other observations

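Several signalling groups held members lower with both methylated microRNAs, at shares around or below the 37.0% of all genes. Of 25 immediate early genes, which respond to growth factors within minutes, 9 were lower in both pairs and 0 higher. EGR2, a zinc finger transcription factor, had 3.7, 4.2, 3.3, 3.4 and 2.7 TPM in library order (control, then native and methylated let-7a, then native and methylated miR-17), or -0.27 and -0.25. BTG2, an antiproliferative gene, was at -0.04 and -0.28. Of 21 TGF-beta response genes, 5 were lower and 2 higher. BAMBI, a decoy receptor of the pathway, was the member most to the other side, at 0.22 and 0.09. Of 19 Wnt and stem-like colon genes, 6 were lower and 1 higher; DKK4, a secreted Wnt antagonist, had 25.6, 37.6, 24.9, 14.3 and 13.0 TPM, or -0.58 and -0.13. Of 24 genes of endoplasmic reticulum chaperones and the unfolded protein response, 10 were lower and 0 higher, and HERPUD1, of the degradation machinery, was at -0.31 and -0.08. No member of these lists passed limma's adjusted threshold.

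Over all genes 8.92% were higher in both pairs and 37.0% lower. Of 32 interferon-stimulated genes, 6 were higher in both (18.75%) and 8 lower (25%). Cholesterol synthesis was nearer to all genes, with 2 of 26 higher (7.69%) and 8 lower (30.8%). Centred on all genes, 12 interferon genes were higher and 2 lower, and for cholesterol synthesis 6 and 3, where 20.8% of all genes were on either side. IRF9, a subunit of the interferon-activated transcription complex, had 21.5, 21.9, 22.7, 14.0 and 17.0 TPM, or 0.05 and 0.26. Of 20 replication-dependent histone genes, 9 were higher in both pairs (45%) and 3 lower (15%), but their members can be listed at 0. HIST1H4K had 8.3, 0.0, 16.7, 0.0 and 1.1 TPM, and HIST1H4J had 0.0, 11.5, 0.0, 9.7 and 8.5 TPM. Histone H4 genes encode the same protein from similar copies that can split reads, so these values are uncertain.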
